A study of Mus musculus with 4 samples.

Results

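Keratins and keratin-associated proteins were examined here as targets and neighbours of CTCF binding in mouse cerebral cortex. The members were the protein-coding genes of the GENCODE mouse annotation whose symbols begin with Krt or Krtap followed by a digit. There were 110 of them among 21938 protein-coding genes, 53 keratins and 57 keratin-associated genes. Of these, 50 lay in a cluster on chromosome 11, 26 in a cluster on chromosome 15 and 24 in a cluster on chromosome 16, where a cluster is a chain of at least 10 members with at most 500 kb between neighbours. The other 10 lay on chromosomes 1 (2 genes), 7 (5 genes) and 10 (3 genes).

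ChIP-seq, the sequencing of DNA recovered with an antibody to CTCF, was done on left cerebral cortex of adult B6CASTF1/J females aged 2 months, which by strain name are first-generation hybrids of C57BL/6J and CAST/EiJ. There was 1 condition, and 4 libraries were made as 2 technical replicates of pool I and 2 of pool J, each pool combining 4 cortex biosamples. The libraries of a pool were merged before peaks were listed, so a pool gives 1 value per peak and the spread between libraries or animals is not given. The lists hold peaks and no expression values, so the tissue label could not be checked against marker genes. No genotype or treatment was compared, and the values below are therefore descriptions with no test.

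Keratins form the intermediate filaments of epithelial cells. A filament pairs an acidic type I keratin with a basic type II keratin, and in mice the type I genes other than Krt18 lie together on chromosome 11, while the type II genes lie together on chromosome 15. Keratin-associated proteins crosslink keratin filaments in the hair shaft, and their short genes lie in tandem arrays. Cortical neurons and glia build other intermediate filaments, such as neurofilaments, vimentin and GFAP. CTCF is a zinc finger protein that binds a long, asymmetric motif, and chromatin loops are typically anchored at pairs of CTCF motifs that face each other along the chromosome.

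The conservative list, made by the authors from peaks found reproducibly in pool I and pool J, held 44672 peaks, each with a summit, the position of its highest signal. The signal values given below are the authors' own peak values, in a unit that was not stated, and their percentiles are taken within the conservative list. In the 3 clusters and the 100 kb on either side of each, 80 of these summits were found. The CTCF motif learned from strong peaks away from these chromosomes read, at its most frequent bases, tggCCACcAGGgGGCgctag. Sites are shown because they bound the longest stretches of keratin or keratin-associated genes without a summit, flank the Krt8 and Krt18 genes, or mark the strongest binding in a cluster or beside it. In the labels of the chromosome 11 Krtap array, only its 20 genes from Krtap1-5 to Krtap17-1 are meant. The rest of that array, Krtap3-3, Krtap3-2 and Krtap3-1, lies left of the left site. Sequences are from RefSeq GRCm38.p6, which is the mm10 build, 5′ to 3′ on the strand of the motif, with the 20 bases of the motif match in capitals.
Left of the chromosome 11 Krtap array, chr11:99574303-99574332, minus strand: agactTGACCACTAGGGGGCAAGAGaggaa
Right of the chromosome 11 Krtap array, chr11:100004975-100005004, minus strand: gtagaCGAACACTAGAGGCCGCCAGaatag
Left of the Krtap16-3 to Krtap7-1 array, chr16:88938440-88938469, minus strand: acagtCTACCAGCAGGGGGCAGAGTccttc
Right of the Krtap16-3 to Krtap7-1 array, chr16:89517814-89517843, minus strand: ggtgaTGACCTACAGAGGGCAGCAGagtcc
Left of Krt8, chr15:101988276-101988305, plus strand: cacgtTGTCCACCAGGAGGCGCCGGaaacc
Right of Krt18, chr15:102065812-102065841, minus strand: ctagaAGGCCACCAGGGGGCAGAGAagggc
Near Krt28, chr11:99379755-99379784, plus strand: cgctaTTTCCACCAGGGGGCAGTGCtggcc
Near Krt78, chr15:101973824-101973853, minus strand: gggatTGCCCTGTAGGGGTCGCCCTaagcc
Outside Krt42, chr11:100295488-100295517, minus strand: tccgtCTGCCGGCAGGGGGCACTACtgcct

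Few keratin promoters carried CTCF. A conservative summit lay within 1000 bp of a transcription start site (TSS) of 2 of the 110 members (1.8%), against 20.8% of all protein-coding genes. The same 2 genes, Krt222 and Krtap5-4, were found in each of the other 3 lists thresholded by reproducibility. Those lists gave 1.8% of members against 23.8% of all genes in the optimal list from pooled reads, 37.4% in pool I's own list and 25.2% in pool J's own list. A summit was thus counted at 1 keratin of 53 and 1 keratin-associated gene of 57, or 1.9% and 1.8%.

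Krt222, a gene related to type I keratins and the first member of the chromosome 11 cluster, had its summit at position 99244714, 629 bp upstream of a TSS. Its signal value was 213, at the 41.1 percentile of the list. The pools' values there were 149 in pool I and 62.3 in pool J. No motif match lay within 50 bp of this summit, which was in an annotated repeat, and 47.8% of the 32-base words of the peak occurred elsewhere in the genome. Krtap5-4, which encodes a sulfur-rich hair protein, had its summit at position 142302800 of chromosome 7, 749 bp upstream of the TSS. That peak was weak, with a signal value of 90.8 at the 5.94 percentile, with 67.9 in pool I and 21.9 in pool J. It had no motif match and no repeated 32-base word. Its irreproducible discovery rate (IDR), the authors' estimate of the share of irreproducible peaks at that rank, was 0.0261, where the lists admit up to 0.05.

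At a stricter IDR of 0.01, Krt222 alone was left, 1 of 110 against 19.8% of all genes. A narrower window removed both genes and a wider one added few. Within 500 bp of a TSS, 0 of 110 members had a summit, against 15.7% of all genes. Within 5000 bp there were 8, against 38.8%: Krt222, the inner root sheath keratin Krt28 and the hair keratin Krt81 among keratins, and Krtap28-13, Krtap14, Krtap15, Krtap5-1 and Krtap5-4 among keratin-associated genes. Before the IDR threshold, the ranked lists held a peak within 1000 bp of 4 members in the list of both pools, against 49% of all genes, and of 7 in the optimal list, 8 in pool I and 4 in pool J, against 56.5%, 59% and 37.7%. The keratins that entered there, with low signal, included Krt5, the basal type II keratin, and Krt10, the type I keratin of differentiating epidermis. The Krt5 peak of the ranked pool I list had a signal value of 12.4 and an IDR of 0.512, and that at Krt10, 82 bp from a TSS, had 14.8 and the same IDR. That TSS of Krt10, at 99386097, lies inside the gene, whose 5′ end is at 99389364.

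**Figure D1:**
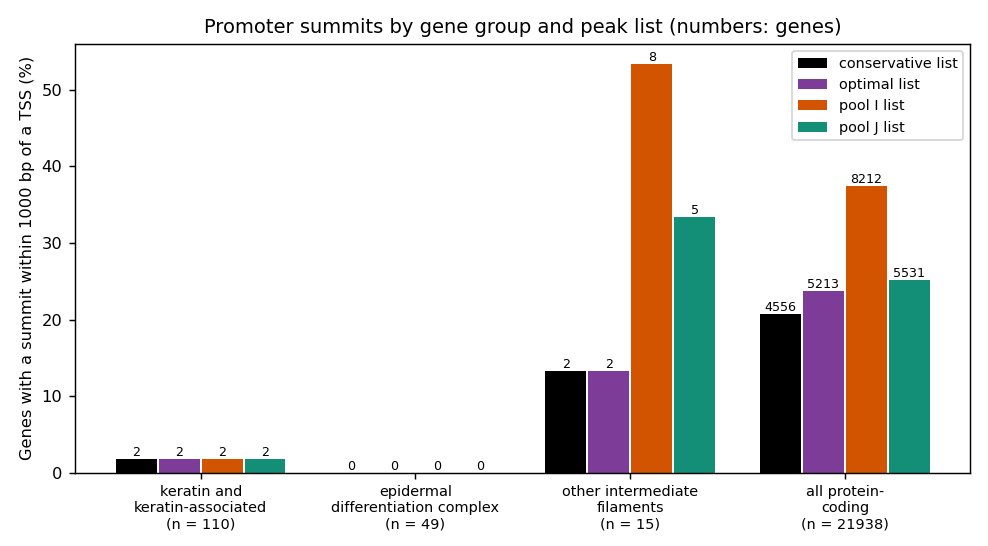
Share of genes with a summit within 1000 bp of a TSS (vertical axis, percent) for keratin and keratin-associated genes, the epidermal differentiation complex, other intermediate filament genes and all protein-coding genes, with a bar for each of the 4 thresholded lists and the number of genes above it. Keratin and keratin-associated genes stay at 2 of 110 in every list, while the share of all genes varies between 20.8% and 37.4%.

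The members' 5′ ends were also poor in CpG, and promoter CTCF was less frequent at such genes in general. None of the 110 members had a CpG-rich 5′ end (observed over expected CpG of at least 0.6 and at least 50% G and C within 500 bp), against 44.4% of all protein-coding genes. The median ratio of observed to expected CpG was 0.24 in members, 0.3 in keratins and 0.17 in keratin-associated genes, and 0.55 in all genes. Of all genes with a CpG-poor 5′ end, 1555 of 12200 (12.7%) had a promoter summit, against 3001 of 9738 (30.8%) with a CpG-rich one. The members' 1.8% was thus below the share of CpG-poor genes as well, and the part of CpG content or of chromatin state in cortex was not tested.

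A pair of other gene groups gives the scale. The epidermal differentiation complex on chromosome 3, a cluster of skin barrier genes, had a promoter summit at 0 of 49 genes in each of the 4 thresholded lists. Crct1 and Crnn, of which the second encodes cornulin, had their nearest summits at 16 kb and 14.2 kb. Of the other intermediate filament genes, 2 of 15 had a conservative promoter summit. These were Synm (synemin), with a signal value of 685 at the 99.8 percentile, and Nes (nestin), with 466 at the 77.6 percentile. The lens filament genes Bfsp1 and Bfsp2 had none, with the nearest summits at 4.32 kb and 10.2 kb. In pool I's own list 8 of these 15 genes had a promoter summit, and in pool J's 5. Within 1000 bp of the gene's 5′ end, the conservative list gave 4 of 15, against 18.6% of all genes. That end is taken from the gene record, which can reach beyond the transcripts whose TSSs were used. The count by TSS can thus miss a summit at a gene's annotated 5′ end. Within 5000 bp of a TSS it gave 10 of 15, against 38.8%. The nearest summits lay at 1.21 kb for Nefm, 1.26 kb for Nefl, 1.39 kb for Prph and 1.45 kb for Vim. Those of Gfap, Ina and Nefh lay at 3.8, 12 and 25.3 kb.

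Members also lay farther from CTCF than genes in general. The nearest conservative summit lay at a median of 23.9 kb from a member's TSS, against 8.71 kb for all protein-coding genes. The epidermal differentiation complex was near the members, with a median of 21.1 kb, and the other intermediate filament genes had 3.46 kb. Keratins were nearer, with a median of 17.2 kb, than keratin-associated genes, with 29.9 kb. Along chromosome 11, the median was 12.6 kb for the 12 keratins from Krt222 to Krt40, 53.9 kb for the 23 keratin-associated genes from Krtap3-3 to Krtap17-1 and 33.3 kb for the 15 keratins from Krt33a to Krt42. It was 15.5 kb on chromosome 15, 44 kb on chromosome 16 and 9.63 kb for the 10 genes outside the clusters. Among members with no promoter summit, Krtap5-1 (1286 bp) and Krtap14 (1922 bp) were nearest. Krtap4-9 (211 kb) and Krtap20-2 (267 kb), which encode an ultrahigh-sulfur and a glycine- and tyrosine-rich hair protein, were farthest.

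**Figure D2:**
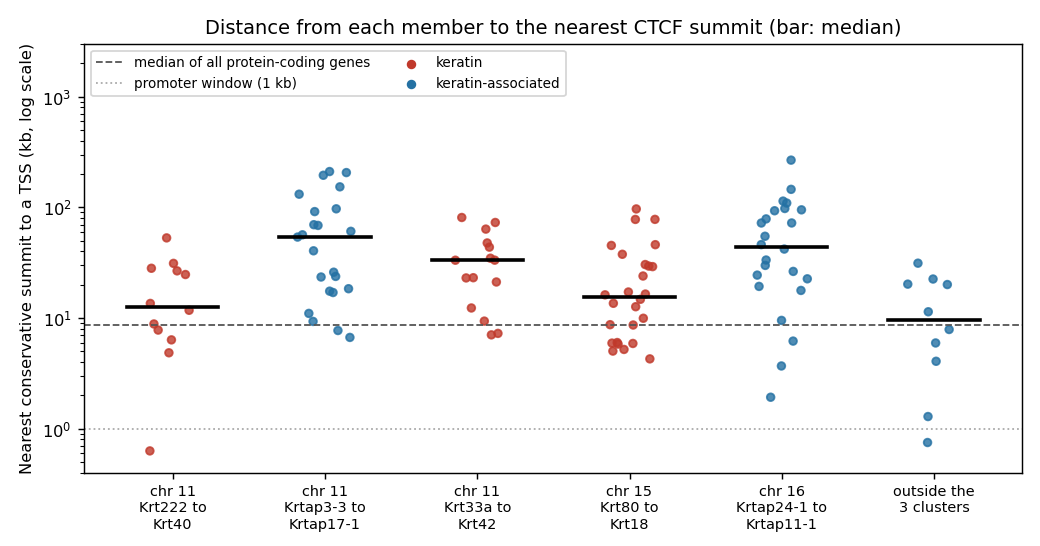
Distance from a TSS of each of the 110 members to the nearest conservative summit (vertical axis, kb, log scale) by gene block, with a point per gene and a bar at the block's median. The Krtap blocks on chromosomes 11 and 16 have the highest medians, 53.9 kb and 44 kb, and the dashed line marks the 8.71 kb of all protein-coding genes.

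Summits inside the genes were few. A conservative summit lay within the body of 8 of 110 members (7.27%), against 45.8% of all protein-coding genes. The epidermal differentiation complex had 2 of 49 (4.08%) and the other intermediate filament genes 9 of 15 (60%). The median gene length was 2.35 kb in members and 17.4 kb in all protein-coding genes. The keratins were Krt28, with the summit in an intron, Krt7, a keratin of simple epithelia, also in an intron, Krt88, Krt81 and Krt75 in coding exons, and Krt86, at a summit that also lies within 1000 bp of a TSS of the clone-named gene Gm49501. The exon summit of Krt88 was the strongest of them, with a signal value of 503 (326 in pool I and 179 in pool J) and no motif match. Krtap14 and Krtap15, which overlap on opposite strands, shared 1 intronic summit at position 88823900, with a signal value of 308.

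The clusters differed in how much CTCF lay between their first and last genes, summits inside genes included. On chromosome 11 (positions 99232761 to 100269871) there were 21 summits or 20.2 per Mb, against 27 per Mb for the chromosome. On chromosome 15 (101347444 to 102032027) there were 20 or 29.2 per Mb, against 19.4. On chromosome 16 (88610705 to 89571183) there were 5 or 5.21 per Mb, against 15.4. All autosomes together had 18.1 per Mb, so the type II keratin cluster, where 13 of the 20 summits lay outside every gene body, was above and the Krtap cluster on chromosome 16 below both comparisons. Each of the 3 clusters kept its side of its chromosome's density in the optimal list, in pool I's and in pool J's.

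Within chromosome 11, the count differed between keratin and Krtap blocks. The left keratin block, from Krt222 to Krt40, held 15 summits or 48.3 per Mb. The Krtap array from Krtap3-3 to Krtap17-1, 443.9 kb long, held 1 or 2.25 per Mb. The right keratin block, from Krt33a to Krt42, held 3 or 11.6 per Mb, and the remaining 2 lay between the array and Krt33a. Counted in 100 kb bins tiled along the chromosome, all 4 bins centred in the Krtap array had no summit, as had 7 of 10 bins of the chromosome 16 cluster and 1 of 7 of the chromosome 15 cluster. Over the 3 clusters this made 12 of 28 bins (42.9%), against 36.9% of autosomal bins, so the 3 clusters as a whole were near the background, and the Krtap arrays held 11 of the 12 empty bins.

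**Figure D3:**
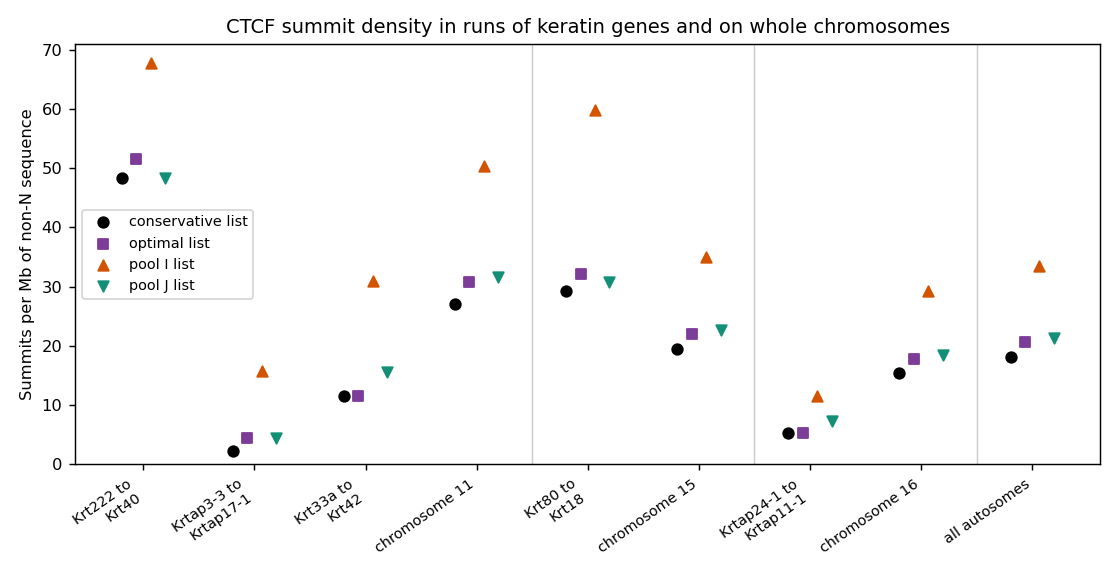
Summits per Mb of sequence (vertical axis) in each run of keratin or keratin-associated genes, left of its whole chromosome, and in all autosomes, with a symbol for each of the 4 thresholded lists. The Krtap arrays lie at 2.25 and 5.21 per Mb in the conservative list, below chromosomes 11 (27) and 16 (15.4), and Krt222 to Krt40 lies at 48.3.

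The longest stretches without a summit held Krtap genes. Between summits at 99574339 and 100005000 on chromosome 11, 430.7 kb with 20 keratin-associated genes (Krtap1-5 to Krtap17-1) held none. Of 43429 autosomal gaps between neighbouring summits, 1.55% were at least as long, and those hold 22.3% of the sequence within gaps. On chromosome 16, 579.4 kb between 88938450 and 89517837 held 10 keratin-associated genes (Krtap16-3 to Krtap7-1) and no summit, where 0.91% of gaps were at least as long and hold 16.6% of the sequence within gaps. Gaps of 230.9 kb, with 5 members from Krtap24-1 to Krtap13, and 240.6 kb, with Krtap11-1, lay on either side of that region, and 5.19% of autosomal gaps reached 200 kb. Gaps at least as long as these hold 36.9% and 35.7% of the sequence within gaps. On chromosome 15 the longest gap was 197.9 kb, from 101772878 to 101970751, with 9 keratins from Krt72 to Krt78, among them Krt1, the type II partner of Krt10. Gaps of at least that length hold 41% of the sequence within gaps.

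These gaps were not without weaker peaks. The chromosome 11 gap held 1 peak of the optimal list, with a signal value of 101, 5 of pool I's list, with a median of 29.7, and 1 of pool J's list, with 20.6. Before the threshold it held 8 peaks of both pools or 18.6 per Mb, against 54.3 per Mb over all autosomes. The 579.4 kb gap on chromosome 16 held 6 such peaks or 10.4 per Mb, 3 in pool I's thresholded list and 1 in pool J's.

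Reads from near-identical gene copies cannot be placed with certainty, and the Krtap genes are such families. Of 32-base words, 20.3% in the chromosome 11 gap and 19.7% in the 579.4 kb gap of chromosome 16 occurred more than once in the genome, against 15.4% at positions sampled over the autosomes. The other 2 Krtap gaps of chromosome 16 were below that, with 12.6% in the 230.9 kb gap and 12.1% in the 240.6 kb gap. It was 6.85% from Krt222 to Krt40, 6.29% from Krt33a to Krt42 and 5.32% in the chromosome 15 gap. The gaps held no unknown bases. The part of repeated sequence in the low counts was not tested.

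The sequence of the Krtap arrays also held fewer matches to the motif. From Krtap3-3 to Krtap17-1 there were 40.6 matches per Mb, against 99.9 from Krt222 to Krt40, 65.7 from Krt33a to Krt42 and 70.9 on chromosome 11. The chromosome 16 cluster had 23.9 per Mb, against 41.5 for its chromosome, and the chromosome 15 cluster 83.3, against 47.4. Matches of at least 15 bits were at 4.51 per Mb in the Krtap array of chromosome 11 and 24.1 on that chromosome. The 430.7 kb gap held 18 matches, of which 1 had at least 15 bits. A summit lay within 50 bp of 1 of 18 matches (5.56%) in the chromosome 11 array, against 26% on the chromosome. It was 8 of 31 (25.8%) from Krt222 to Krt40 and 3 of 17 (17.6%) from Krt33a to Krt42. The chromosome 16 cluster had 4 of 23 (17.4%), against 24.2%, and the chromosome 15 cluster 11 of 57 (19.3%), against 26.1%. These shares rest on few matches. The part of motif density in the low counts was not tested.

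**Figure D4:**
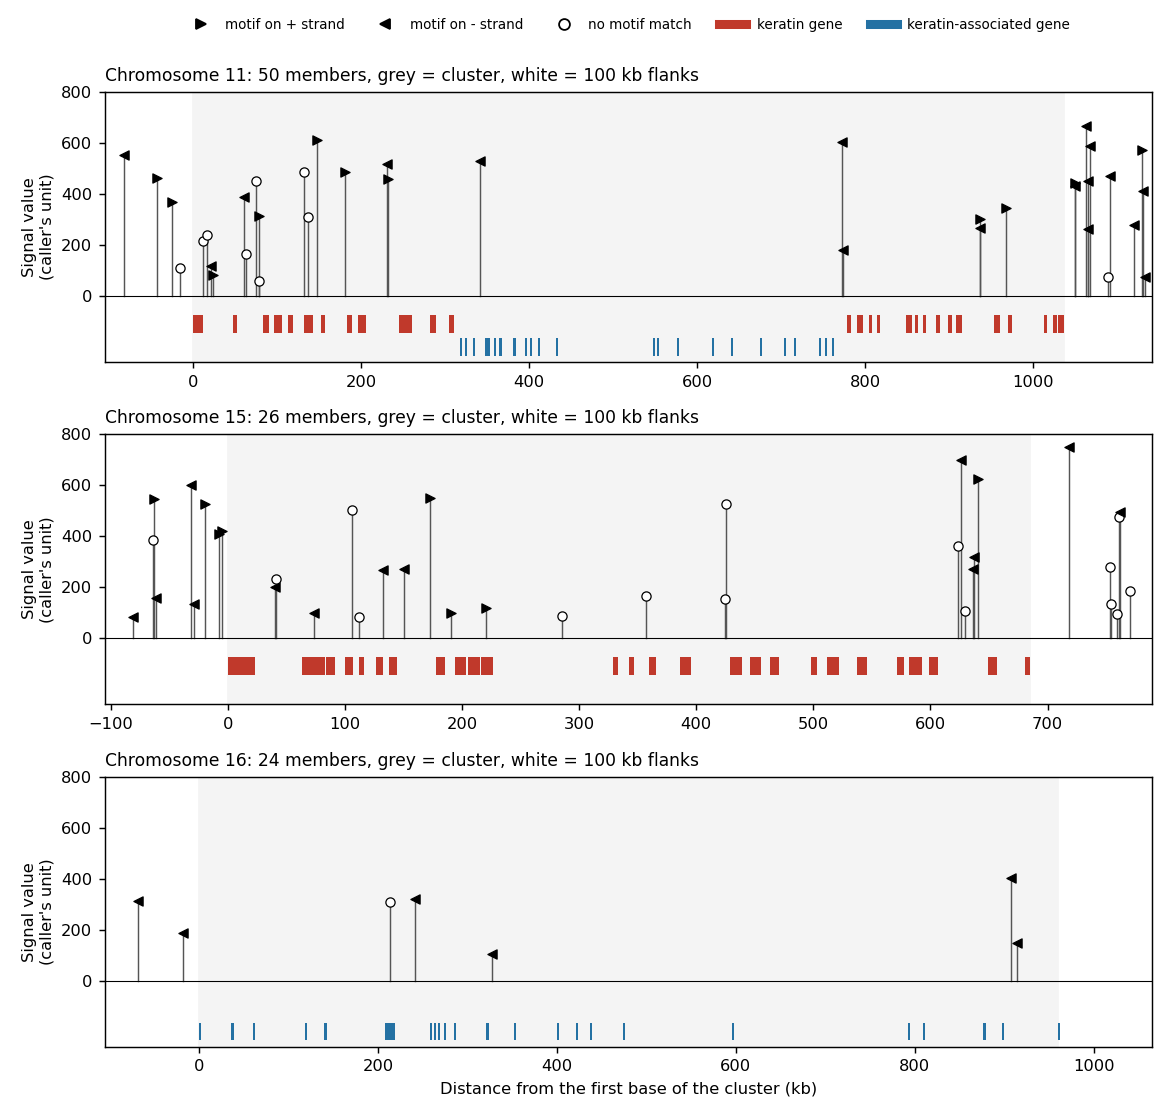
Conservative summits in the 3 clusters (grey) and their 100 kb flanks (white), at their distance from the first base of the cluster (horizontal axis, kb) and signal value (vertical axis, unit of the peak caller), with symbols for the motif's strand and bars for the genes. The Krtap genes of chromosome 11 lie mostly between a pair of strong summits 430.7 kb apart, and Krt8 and Krt18 lie between the facing motifs at the right of chromosome 15.

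Within the clusters and their 100 kb flanks, the strongest summit lay outside the cluster on chromosomes 11 and 15 and inside it on chromosome 16. Beside the chromosome 15 cluster, 33.8 kb outside Krt18, lay the strongest of all 44672 conservative peaks, at 102065859. The nearest TSS, 7914 bp away, was that of Eif4b, which encodes a translation initiation factor. Its signal value was 751, with 419 in pool I and 332 in pool J. Its scaled IDR score was 569, where 1000 is the most reproducible and 540 the lowest admitted. Within the cluster, the strongest summits were at 101973883 near Krt78 (697, the 46th of the list by signal, in an annotated repeat), at 101988282 near Krt8 (623) and at 101519968 near the clone-named gene Gm49425 (548). The left flank reached 600 at 101315973, within 1000 bp of a TSS of the clone-named gene Gm49499. The protein-coding TSS nearest to it was that of 6030408B16Rik, 22741 bp away.

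On chromosome 11 the summit at 100295551, 25.7 kb outside Krt42 and 24334 bp from the TSS of the translation initiation factor gene Eif1, had a signal value of 665. Its printed motif match, of 21.1 bits, was centred 48 bp from the summit. A second minus-strand match, of 20.2 bits, lay nearer, at 100295546 to 100295565. Within the cluster, 99379752 near Krt28 had 610 (373 in pool I and 244 in pool J), 100005000 near Krtap17-1 had 605 (362 and 247) and 99574339 near Krtap1-5 had 530 (341 and 197). The last pair are the ends of the 430.7 kb gap, at the 96.7 and 87.4 percentiles. In the left flank, an intron of the chemokine receptor gene Ccr7 held a summit of 552. The highest signal values were lower on chromosome 16. Its cluster reached 401 at 89517837 near Krtap7-1, 321 at 88851658 near Krtap19-1 and 308 at the Krtap14 summit, and its left flank 313 at 88542736, 20447 bp from the claudin gene Cldn8. The right flank, beyond Krtap11-1, held 0 summits in each of the 4 thresholded lists. The next conservative summit beyond that flank, at 89765695, is the right end of the 240.6 kb gap. It had a signal value of 474, above the highest of the cluster.

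In the conservative list, the flanks together held more summits per Mb than the cluster on all 3 chromosomes. The 100 kb left and right of the chromosome 11 cluster had 4 and 12 summits, or 40 and 120 per Mb, and those of chromosome 15 had 9 and 7, or 90 and 70 per Mb. Chromosome 16 had 2 and 0. Over both flanks together, the densities were 80, 80 and 10 per Mb, against 27, 19.4 and 15.4 for the whole chromosomes. The flanks were thus denser than the chromosome on chromosomes 11 and 15 and sparser on chromosome 16. In pool I's list the flanks of chromosome 16 had 10 per Mb and its cluster 11.5, the other way round from the conservative list. Median signal values were 314, 250 and 308 in the clusters of chromosomes 11, 15 and 16, against 270 for all autosomal summits.

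A motif match lay within 50 bp of 55 of the 80 summits (68.8%, exact Clopper-Pearson 95% interval 57.4% to 78.7%, covering counting only), against 66% of all conservative summits. It was 29 of 46 within the clusters (63.0%, interval 47.5% to 76.8%) and 26 of 34 in the flanks (76.5%, interval 58.8% to 89.3%), and both intervals held the share of the whole list. The share was lowest in the right flank of chromosome 15, with 2 of 7, where 5 summits lay in the gene of the adhesion protein tensin 2, Tns2. In annotated repeats lay 12 of the 80 summits, against 19.9% of all.

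Motif strands were counted by place. At the 80 summits, 19 motifs were on the plus strand and 36 on the minus strand, against 14664 and 14839 over all conservative summits. The counts of single places are small, and no difference was tested. The chromosome 11 cluster had 7 motifs on the plus strand and 7 on the minus strand, its left flank 2 and 1, and its right flank 2 and 9. The chromosome 15 cluster had 4 and 7, its left flank 4 and 4, and its right flank 0 and 2. All 4 motifs of the chromosome 16 cluster and both in its left flank were on the minus strand. Among neighbouring summits with a motif, 10 kb to 1 Mb apart, 9 of 35 pairs with both summits in the clusters and flanks faced each other (25.7%), against 26.1% of such pairs over all autosomes. On the same strand were 21 of 35, against 50.6%, and pointing apart 5 of 35 (14.3%), against 23.3%. Members lay between 20 of these pairs, of which 8 faced each other, 12 were on the same strand and 0 pointed apart. Autosomal pairs with genes between them were not counted apart, so these 20 pairs have no matching background.

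The 8 facing pairs with members between them are given as positions only, since no contacts were measured here. The longest, from 101567974 to 101973883 on chromosome 15, spanned 405.9 kb with 13 keratins from Krt6b to Krt78 and 5 summits without a motif. Its left end was weak, with a signal value of 117 at the 16.4 percentile, and overlapped no peak of pool J's own thresholded list. Krt8 and Krt18, the type II and type I partners of simple epithelia, lay between a plus-strand motif at 101988282 and a minus-strand motif at 102065859, 77.6 kb apart, whose sequences are printed above. Krt14, Krt16, Krt17 and Krt42, which include the basal partner of Krt5 and the stress keratins, lay between 100200288 and 100282193, 81.9 kb apart. Krt12, the corneal keratin, and Krt20, a gut keratin, lay within 49.9 kb. Krt23, Krt39, Krt40, Krtap3-3, Krtap3-2 and Krtap3-1 lay between facing motifs 109.4 kb apart. The remaining pairs held Krt222 (46.9 kb), Krt24 (36.6 kb) and Krt80 (45.4 kb). The Krt222 pair also had a weak end, with a signal value of 117 at the 16.3 percentile. So had the Krt24 pair, with 80.8 at the 3 percentile. Both ends of the 430.7 kb gap and both ends of the 579.4 kb gap were on the minus strand.

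Pool I gave higher signal values than pool J here as elsewhere. The median log2 ratio of pool I over pool J was 0.96 (SD 0.41, n = 80 summits) in the clusters and flanks, 1.08 in the clusters alone (SD 0.39, n = 46) and 0.84 in the flanks (SD 0.41, n = 34), against 1.09 (SD 0.39) for all conservative summits. By cluster it was 1.03 on chromosome 11 (SD 0.29, n = 21), 1.11 on chromosome 15 (SD 0.5, n = 20) and 1.36 on chromosome 16 (SD 0.24, n = 5). The medians of the clusters lay -0.06, 0.02 and 0.27 from that of all conservative summits, and single summits ranged from 0.16 to 1.79, with 0.34 at the strongest summit near Eif4b. None of the 80 lay more than 1 from the median of all on the log2 scale, where 0.47% of all conservative summits did. The nearest to equal was 101984518 to the left of Krt8 (168 in pool I and 151 in pool J), with a log2 ratio of 0.16. It was followed by 101283939 near the autophagy gene Atg101 in the left flank of chromosome 15 (295 in pool I and 247 in pool J, ratio 0.26) and by 101984099, in the same interval as the first (154 in pool I and 128 in pool J, ratio 0.27).

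**Figure D5:**
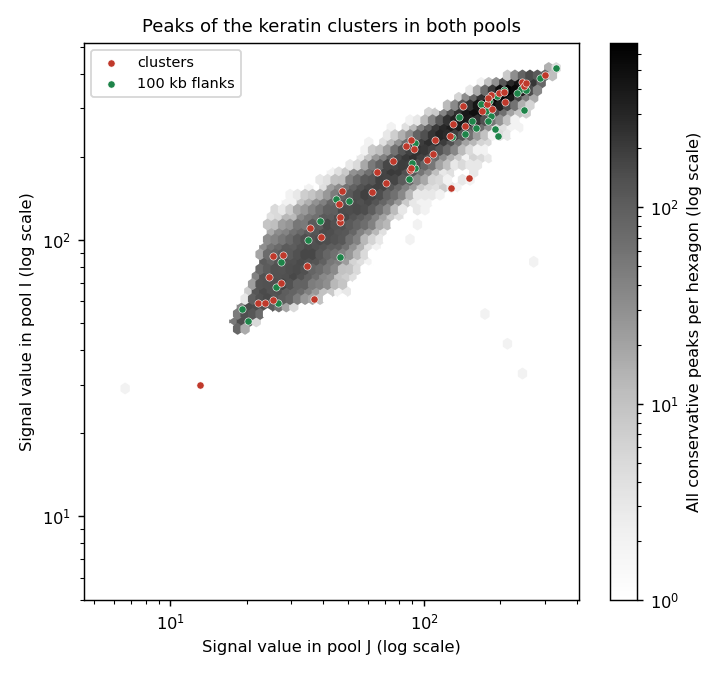
Signal value in pool I (vertical axis, log scale) against pool J (horizontal axis, log scale) for the 46 cluster and 34 flank summits, over all conservative peaks in grey hexagons. The keratin summits lie within the grey band, with medians of 1.08 and 0.84 for the log2 ratio, and the pair of summits left of Krt8 sits at its lower edge.

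The lists of the pools shared most strong peaks of the clusters. Of 91 peaks in pool I's list, 51 (56%) were overlapped by a pool J peak, and of 51 in pool J's list 49 (96.1%) by a pool I peak. Those of pool I without a partner had a median signal value of 34.7, against 177 for those with one. In the flanks, 46 of 61 pool I peaks (75.4%) and 44 of 44 pool J peaks were overlapped. Pool I's list is the longer one, with 82131 peaks against 52658 in pool J's. The overlap of the whole lists was not counted, so these shares have no background and are not read as a trait of the clusters. The summits whose sequences are printed above overlapped a peak in each pool's own list. Of the 80 conservative summits, 3 were overlapped by no peak of the thresholded optimal list, among them the strongest of the chromosome 15 cluster and the strongest beside chromosome 11's. The matching share over the whole conservative list was not counted. In the ranked optimal list, 101973883 had an IDR of 0.0951 and 100295551 an IDR of 0.698, above the 0.05 admitted.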

How the data were processed

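CTCF ChIP-seq libraries came from frozen left cerebral cortex and, per the labels, spanned 200 to 600 bp. The authors deposited 8 peak lists on mm10, 4 thresholded by IDR and 4 ranked lists before the threshold: from both pools as replicates (conservative), from pooled reads (optimal), from pool I and from pool J. Each peak's deposited score rescales its IDR on a log scale that stops at 1000, and 540 stands for 0.05. This relation was checked on ranked peaks and held within 1 unit for 100% of them. Ranked lists hold, as deposited, −log10 of the IDR too. Signal values, a second score from the authors, carry no stated unit. For aligner, peak caller, versions and control the entry is: not given in the sources used here. Read depth is unknown, so binomial intervals (95%) cover counting only.

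In the ranked list of both pools, the signal columns were assigned by interval: 84.5% of the first input's intervals recurred in pool I's ranked list and 61.8% of the second's in pool J's.

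TSSs were those of every transcript in the GENCODE M21 basic annotation on GRCm38.p6. A summit was start plus summit offset, and several summits of 1 interval were counted separately. The motif, 20 bases wide, was learned from 1000 strong summits off chromosomes 11, 15 and 16, with a threshold of 11.83 bits on either strand that 1% of windows 1000 bp away passed. Repeated words were 32 bases long and sampled every 1000 bp for the autosomes. Analyses ran in Python 3.11.15 with numba 0.67.0, SciPy 1.17.1, pandas 2.3.3, numpy 2.4.6 and matplotlib 3.10.9. Counting steps were tested on simulated data.

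Members and comparison lists were chosen with earlier results of these data known. Named were members with a promoter summit in any thresholded list, the first and last of each cluster, the genes nearest to the 3 strongest summits of each cluster and the strongest of each flank, the 2 members nearest to and the 2 farthest from a summit among the rest, and of each comparison list the 3 genes with the strongest promoter summit and the alphabetically first 2 without. Other genes are named for their position, after their values were seen.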

Additional observations from a re-analysis of the deposited data

How the results depend on the processing

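Of the recomputed values, 42 kept within 1.5 times the value in the report or, for the motif share and the log2 ratio, within its spread, and 10 moved. The count of members with a promoter summit was 1 at an IDR of at most 0.01, 0 within 500 bp and 8 within 5000 bp, where all protein-coding genes had 19.8%, 15.7% and 38.8%. Pool I's own list, with 82131 peaks, gave 39 summits in the chromosome 11 cluster, 41 in that of chromosome 15 and 11 in that of chromosome 16, and 135 and 160 per Mb in the flanks of chromosomes 11 and 15. Outside every gene body the chromosome 15 cluster held 13 summits. A motif threshold that 0.1% of flanking windows passed left 17.5% of the 80 summits with a match, against 14.5% of summits off the 3 chromosomes. No paired analysis was possible because the libraries of each pool were merged before the lists were made, no result comes from a test, and leaving out single libraries was likewise not run. The lists of each pool stand in for leaving out the other pool.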

Other observations

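The keratin-associated genes outside the clusters form small groups whose members differed in their distance from CTCF. On chromosome 7, the nearest conservative summit lay 5948 bp from Krtap5-2, 31307 bp from Krtap5-3, 20071 bp from Krtap5-5, 1286 bp from Krtap5-1 and 749 bp from Krtap5-4. On chromosome 1 it lay 4063 bp from Krtap28-13 and 22513 bp from Krtap28-10. On chromosome 10 it lay 7875 bp from Krtap12-1, 11388 bp from Krtap10-4 and 20240 bp from Krtap10-10.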
